A study of Mus musculus with 6 samples.

Results

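The genes described here are 10 members of the EGF, neuregulin and PDGF signalling systems, measured in astrocytes of the mouse neocortex and cerebellum. They comprise the receptor genes Egfr, Erbb2, Erbb3, Erbb4 and Pdgfrb and the ligand genes Nrg1, Hbegf, Pdgfa, Pdgfb and Pdgfc. Members were the probe sets whose single gene symbol, current or former, in the platform annotation was one of these names. This gave 22 probe sets for the 10 genes, out of 18193 genes named on the array. RNA from 3 samples labelled neocortical astrocytes and 3 labelled cerebellar astrocytes was hybridised to 6 single-colour oligonucleotide arrays. The labels give the strain ICR for the neocortical arrays and no strain for the cerebellar ones, so a regional difference cannot be told apart from a strain difference if the strains differed. No treatment, genetic change, age or method of obtaining the cells is given in the sources used here. The labels do not say whether the 3 samples of a region are separate animals or cultures, and p-values below therefore reflect variation among these samples alone, part of which may be technical.

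Both signalling systems use receptor tyrosine kinases that pair when a ligand binds and then feed the RAS-MAP kinase and PI3 kinase routes. The EGF receptor binds ligands such as HB-EGF, the neuregulin receptors are ErbB3 and ErbB4, and ErbB2 has no ligand of its own and serves as their partner. PDGF chains form dimers that bind PDGF receptor alpha or beta. In brain, PDGF-A made by astrocytes and neurons acts on oligodendrocyte precursors, which carry receptor alpha, while receptor beta is best known on pericytes.

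Of the 10 genes, the ligand gene Pdgfa was the one that passed the test between regions. It was 1.47-fold higher in cerebellar astrocytes, by its brightest probe set. This call held under 8 of 18 alternative settings, and the second Pdgfa probe set did not pass. Nrg1 and Pdgfb had lower values on every cerebellar than on every neocortical array, but their differences did not pass the test. No receptor gene passed. The comparison was made with limma across 27022 probe sets, with Benjamini-Hochberg adjustment over all of them and a threshold of 0.05. The brightest probe set stood for each gene. Of the 9 members bright enough to be tested, 1 was higher in cerebellar astrocytes and 0 were lower. Over all 12616 genes tested the same way, 5.30% were higher and 7.36% were lower, so 1 gene of 9 is close to the share over the array. At an unadjusted p under 0.05 the counts were 1 higher and 2 lower, against 12.6% and 15.3% of all genes tested. By probe set, 1 of 17 tested was higher and 0 were lower, against 4.88% and 5.72% of all probe sets tested. The median log2 difference of the 9 was 0.21, against -0.01 over all genes tested. It depended on the scaling, and with arrays scaled to a common median the members' median was 0.02.

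Signals of genes are quantile-normalized intensities in arbitrary units, and a positive log2 difference means higher in cerebellar astrocytes. Control probe sets were left out of the normalization, and their values are as deposited. Signals of different genes come from different probes and were not compared in level. The 24 bacterial control probe sets read from 2.90 to 269.2, which is called the dim range below, and 95% of their values were under 116. All 12 astrocyte markers examined, such as Gja1, Gfap and Aqp4, were bright enough to be tested, with 4 lower and 1 higher in cerebellar samples. The fibroblast markers differed between arrays of 1 group, with a summed signal of 50769 to 218012 on cerebellar and 54323 to 92233 on neocortical arrays. By summed signal, cerebellar array 1 was lowest in markers of fibroblasts, microglia and astrocytes. Not every marker followed the sums. On that array Aqp4, Aldh1l1 and Col1a1 were above all neocortical arrays, and Trem2 was at its highest. For the Gapdh controls, a gauge of RNA integrity, the 3′ signal over the 5′ signal was 0.913 to 1.07 on cerebellar and 0.865 to 0.883 on neocortical arrays. For the actin controls it was 1.42 to 1.62 and 1.35 to 1.44, with overlap, and its part in the results was not tested. In bulk RNA of this kind, fewer cells of a type and less RNA per cell cannot be told apart.

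**Figure D1:**
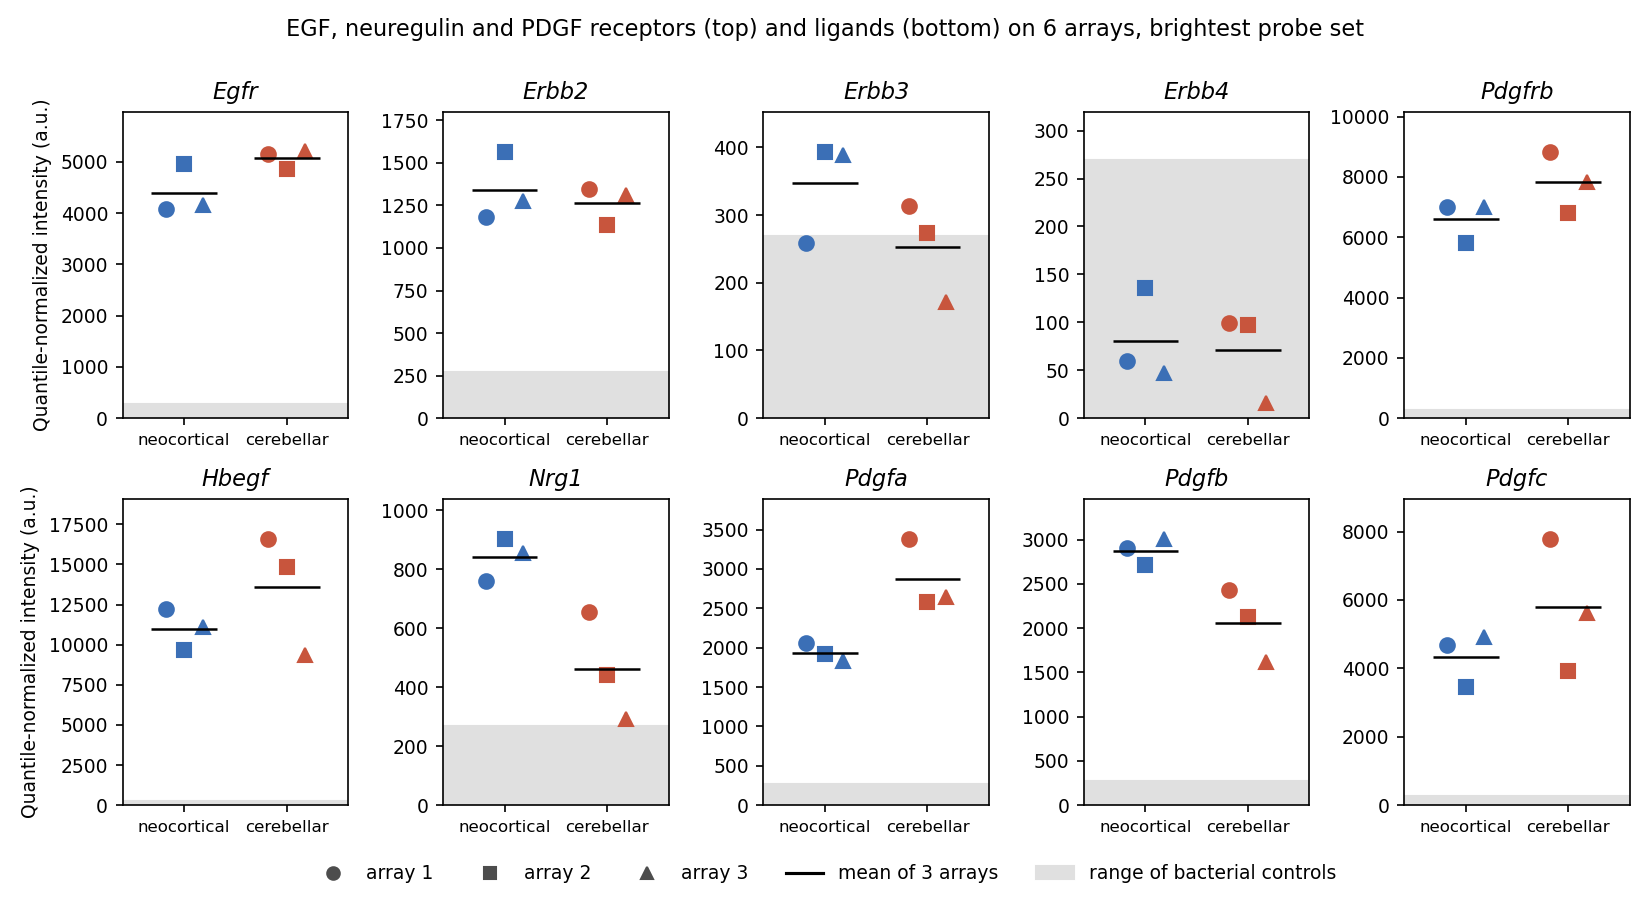
Quantile-normalized intensity (arbitrary units, linear axis from 0) of the brightest probe set of each gene on the 3 neocortical and 3 cerebellar arrays. Bars are means of 3 arrays. Grey is the range of bacterial controls, as deposited and not normalized, up to 269.2. For Pdgfa all cerebellar points lie above the neocortical ones, for Nrg1 and Pdgfb all lie below, and Erbb4 lies within the grey range on every array.

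Pdgfa encodes the A chain of PDGF, which signals through receptor alpha. On the neocortical arrays its signal was 2061, 1917 and 1835, and on the cerebellar arrays it was 3386, 2576 and 2643. The groups did not overlap, and cerebellar array 1 was the highest. Cerebellar astrocytes had a mean of 2868 ± 449 against 1938 ± 115 for neocortical ones (SD, n = 3 each), a log2 difference of 0.56 ± 0.14 (SE, limma adjusted p = 0.0374). A second probe set for Pdgfa read 1311, 1129 and 1126 on neocortical and 1645, 1231 and 1502 on cerebellar arrays. Its groups overlapped, and its log2 difference of 0.29 ± 0.16 (SE) did not pass (limma adjusted p = 0.294). The Pdgfa call passed under 8 of 18 alternatives, and was lost when any array other than cerebellar replicate 2 was left out. Without neocortical replicate 1, 2 or 3 the limma adjusted p was 0.0906, 0.112 and 0.134, without cerebellar replicate 1 or 3 it was 0.0715 and 0.0551. With arrays scaled to a common median the adjusted p was 0.150, the highest of the 18, and the lowest was 0.0257. The log2 difference was above 0 in all 18, from 0.42 to 0.63.

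The promoter of Pdgfa is shown because it is the member that passed. No promoter activity was measured here. The 250 bases before the more upstream of the 2 starts in the RefSeq table (GRCm38.p6, chr5:138994945-138995194, minus strand) read as follows, with matches to the GC box letters GGGCGG, searched on both strands, in capitals.
Pdgfa: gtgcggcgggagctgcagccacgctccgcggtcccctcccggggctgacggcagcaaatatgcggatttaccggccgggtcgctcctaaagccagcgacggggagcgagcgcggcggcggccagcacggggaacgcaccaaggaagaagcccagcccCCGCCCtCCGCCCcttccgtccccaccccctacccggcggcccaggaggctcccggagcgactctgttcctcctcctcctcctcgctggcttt
The window held 2 matches, both on the other strand and next to each other, and 72.4% of its bases were G or C. At least 1 match stood in 32.7% of all 32851 windows of the same length in the table. Of the 6 windows listed for 5 members, 3 had a match, namely both windows of Pdgfa and that of Egfr.

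Pdgfb encodes the B chain of PDGF, which binds both receptors and is known as the ligand that brings pericytes to vessels. Its signal was 2900, 2710 and 3012 on neocortical arrays and 2430, 2125 and 1619 on cerebellar arrays. Every cerebellar array was below every neocortical one. The log2 difference was -0.50 ± 0.16 (SE, 95% interval -0.86 to -0.14), which did not pass (limma adjusted p = 0.0818). Its dimmer probe set overlapped between the groups, with a log2 difference of -0.35 ± 0.33 (SE). Without cerebellar replicate 1, the highest of the cerebellar arrays for this gene, the difference was -0.63 and passed (limma adjusted p = 0.0357, range 0.0357 to 0.298 over 18 alternatives).

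The A and B chain genes thus lay on opposite sides of 0. Their ratio on the same array does not depend on a scaling of whole arrays. The pair was chosen after these values were seen, which fixes the direction of the ratio, so it is given as a description with no test. The log2 of Pdgfa over Pdgfb signal was -0.49, -0.50 and -0.72 on neocortical arrays and 0.48, 0.28 and 0.71 on cerebellar arrays. The means were -0.57 ± 0.13 and 0.49 ± 0.21 (SD, n = 3 each), which differ by 1.06. Because the probe sets differ, the sign of each ratio says nothing of which chain was more abundant.

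Pdgfc encodes a chain that is secreted in latent form and cleaved outside the cell. Its brightest probe set read 4675, 3443 and 4904 on neocortical and 7796, 3931 and 5618 on cerebellar arrays. Cerebellar array 1 was far above the others, and the groups overlapped, though each cerebellar array was above the neocortical array of the same number. The log2 difference of 0.37 ± 0.24 (SE, 95% interval -0.16 to 0.91) did not pass (limma adjusted p = 0.355, and 0.111 with the replicate number as a block). A second probe set, at 3735, 3314 and 3567 against 6734, 3919 and 4698, did not overlap between groups but did not pass either (log2 difference 0.50 ± 0.18, SE, limma adjusted p = 0.120).

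Nrg1, the neuregulin gene, had the largest fitted difference of the tested members, and it did not pass. Its single probe set read 761.5, 904.9 and 855.3 on neocortical arrays and 655.1, 440.1 and 291.8 on cerebellar arrays. All cerebellar arrays were lower, and cerebellar array 3 was near the dim range. The log2 difference was -0.94 ± 0.29 (SE, 95% interval -1.59 to -0.28, limma adjusted p = 0.0734), a 1.91-fold lower fitted level in cerebellar astrocytes. Leaving out cerebellar replicate 1 gave -1.23 and a limma adjusted p of 0.0178 (range 0.0178 to 0.227 over 18 alternatives). Nrg1 is made as many isoforms from several promoters, and which of them this probe set detects was not examined.

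Nrg1, Pdgfb, Hbegf and Erbb3 shared an order over the cerebellar arrays, being highest on array 1 and lowest on array 3. Erbb4, which was not tested, had this order too, within the dim range. The order was picked out after the values were seen, and its share over all genes was not counted. Fibroblast markers had the opposite order on the cerebellar arrays by their median over 8 genes. The median was -0.83, 0.84 and 1.35 on the log2 scale relative to the neocortical mean. Col1a1, at 24163, 21210 and 32246, and Lum, at 1599, 6274 and 6242, did not have that order. Fibroblast-defining Col1a1, Col3a1 and Dcn were bright on every array of both groups. The summed signal of 10 neuron markers had the same order as the 4 genes. It was 19630, 13152 and 7313 on cerebellar arrays, against 9614 to 14095 on neocortical arrays. Most of this sum came from Stmn2, at 17383, 10508 and 5219 on cerebellar arrays, while Syt1, Gad1 and Rbfox3 did not have that order. Of these 10, 6 lay in the dim range on every array, and 2 of the 4 tested, Syt1 and Gad1, were lower in cerebellar samples. The part of either list in the values of the 4 genes was not tested.

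**Figure D2:**
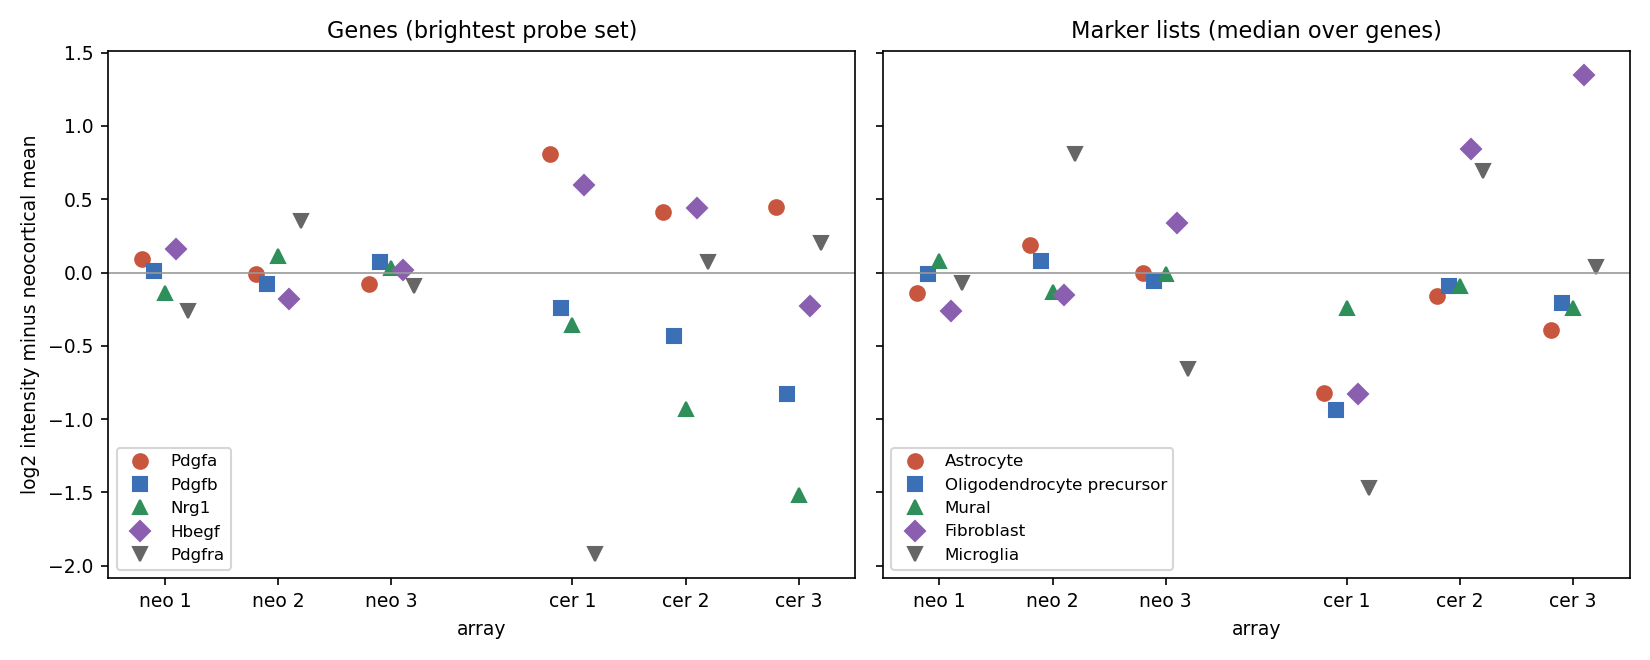
Each point is the log2 intensity on 1 array minus the mean of the 3 neocortical arrays, for 5 genes (left) and for the median gene of 5 marker lists (right); neo and cer are the arrays of each region. Nrg1 falls to -1.52 on cerebellar array 3, where the fibroblast list reaches 1.35. Pdgfra, by its brightest probe set, is lowest on cerebellar array 1.

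Hbegf encodes HB-EGF, a membrane-anchored ligand of the EGF receptor and ErbB4 that is released by cleavage. Its brightest probe set read 12210, 9678 and 11114 on neocortical and 16615, 14838 and 9346 on cerebellar arrays. Cerebellar arrays 1 and 2 were above all neocortical arrays and cerebellar array 3 was below them, so the groups overlapped. The log2 difference of 0.27 ± 0.20 (SE, 95% interval -0.17 to 0.71) did not pass (limma adjusted p = 0.425). The second probe set did not overlap between groups, at 4848, 4664 and 5105 against 7195, 6672 and 5314, and did not pass (log2 difference 0.38 ± 0.13, SE, limma adjusted p = 0.0901). Without cerebellar replicate 3 the brightest probe set had a difference of 0.52 and passed (limma adjusted p = 0.0415, range 0.0415 to 0.913 over 18 alternatives).

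By brightest probe set, 3 of the 9 tested members did not overlap between groups, 1 higher and 2 lower in cerebellar astrocytes. Over all genes tested this share was 34.3%, with 16.0% higher and 18.3% lower, so the members were near the array as a whole. The coefficient of variation was larger among cerebellar than among neocortical arrays for all 5 ligand genes and for 2 of the 4 tested receptor genes. It was larger among cerebellar arrays for 63.5% of all genes tested.

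**Figure D3:**
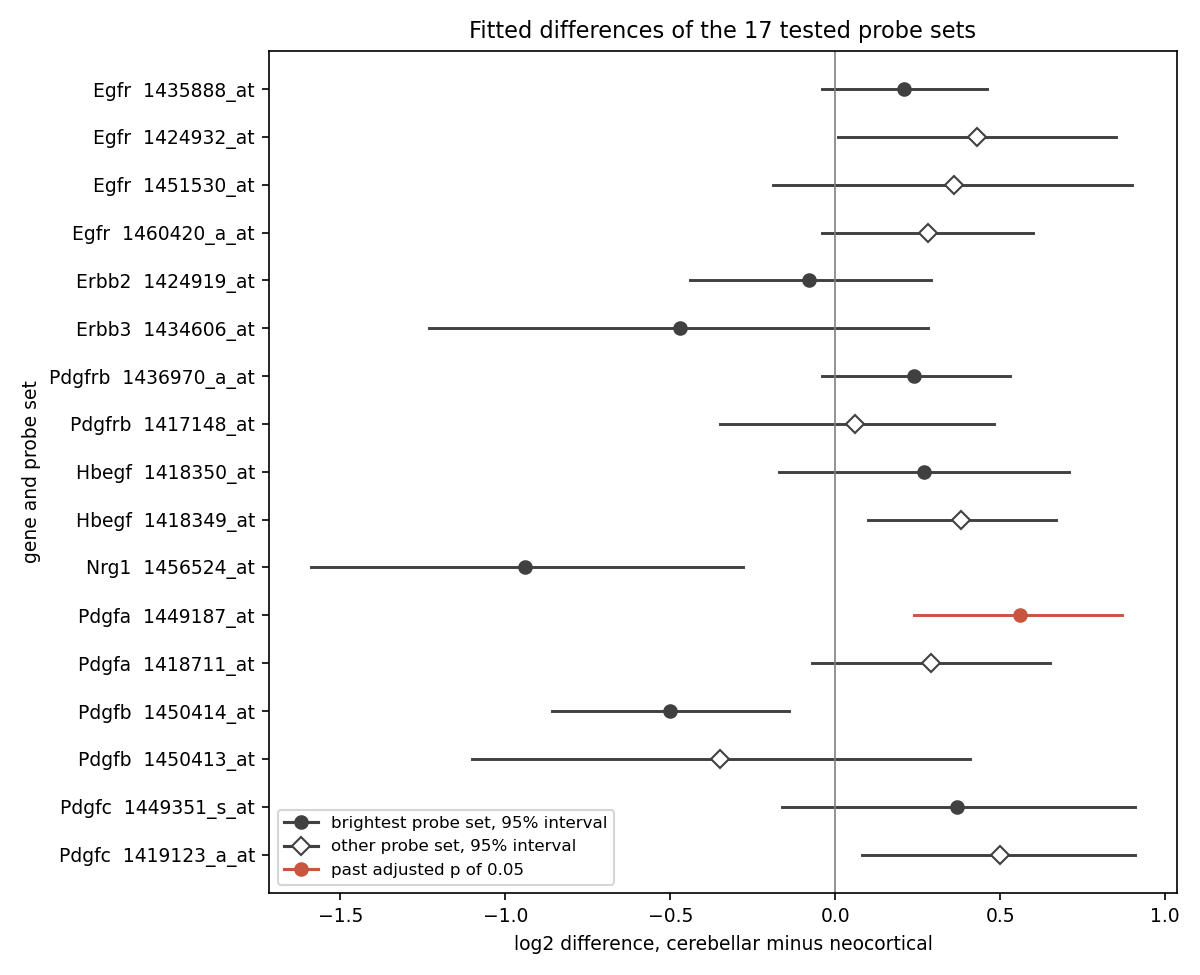
Fitted log2 difference (cerebellar minus neocortical, x axis) with its 95% interval for each of the 17 tested member probe sets (y axis), filled for a gene's brightest probe set and open for the others. The interval of the brightest Pdgfa probe set runs from 0.24 to 0.87, and probe sets of 1 gene lie on the same side of 0.

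Among the receptors, Egfr was detected by several probe sets and did not pass with any of them. The brightest read 4083, 4966 and 4151 on neocortical and 5151, 4860 and 5201 on cerebellar arrays. The groups overlapped through neocortical array 2. The log2 difference was 0.21 ± 0.11 (SE, 95% interval -0.04 to 0.46, limma adjusted p = 0.266), so that a cerebellar level up to 1.37-fold that of the neocortical arrays is within the interval. The other 3 tested Egfr probe sets had log2 differences of 0.28 to 0.43, and the 3 remaining ones were too dim to be tested. The probe set at 0.28 did not overlap between groups, at 1536, 1415 and 1865 against 1916, 1980 and 1899 (limma adjusted p = 0.255). All 7 measure RNA of 1 gene and are not replicates.

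Erbb2, the ligandless partner of the other ErbB receptors, read 1181, 1567 and 1274 on neocortical and 1347, 1137 and 1311 on cerebellar arrays. The values were interleaved. The log2 difference was -0.08 ± 0.16 (SE, 95% interval -0.44 to 0.29, limma adjusted p = 0.809), and its sign changed under 1 of 18 alternatives.

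The neuregulin receptor genes had low signal. Erbb3, whose product binds neuregulin but has little kinase activity, read 258.4, 393.8 and 388.1 on neocortical and 313.7, 274.1 and 171.2 on cerebellar arrays. These values straddle the upper end of the dim range and lie above 116, and the difference of -0.47 ± 0.33 on the log2 scale (SE, limma adjusted p = 0.412) did not pass. Erbb4, whose product binds neuregulins and is an active kinase, read 59.23, 136.2 and 46.95 on neocortical and 99.09, 97.44 and 15.63 on cerebellar arrays. All 6 values lie in the dim range and 3 were at or under the floor of 62.2, so Erbb4 was not tested and its level could not be told from background by this probe set. Erbb3 also marks oligodendrocyte precursors and Schwann cells. Of the precursor list Olig1 and Olig2 were lower in cerebellar samples, with log2 differences of -1.74 and -2.58. Pdgfra, Cspg4 and Sox10 of the same list did not pass, at -0.55, 0.16 and 0.12. The list's summed signal, most of it from Olig1, was 9842 to 16324 on cerebellar and 33444 to 37339 on neocortical arrays, with Gpr17 at the floor on all 6. Of 5 Schwann or neural crest markers 3 had a named probe set, and their summed signal was 495 to 634 against 722 to 923. Of the oligodendrocyte list, Mbp was higher in cerebellar samples, at 2.65, with a neocortical mean of 185.4 in the dim range. Cnp did not pass, at 0.20, and Mog, Mag and Mobp lay in the dim range on every array. The part of any of these lists in the Erbb3 values was not tested.

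Pdgfrb, the receptor for PDGF-B, was bright in both groups. Its brightest probe set read 6989, 5791 and 7009 on neocortical and 8840, 6817 and 7834 on cerebellar arrays. The groups overlapped through cerebellar array 2, and in all 3 same-numbered pairs the cerebellar array was higher. The log2 difference was 0.24 ± 0.13 (SE, 95% interval -0.04 to 0.53), with a limma adjusted p of 0.254, and 0.136 with the block. The second Pdgfrb probe set gave 0.06 ± 0.18 (SE). Of the 9 mural cell markers, Kcnj8, Abcc9 and Myh11 lay in the dim range on every array, and Rgs5 read 219.0 to 313.3. Notch3 was bright on every array, at 1548 to 3384, while Anpep reached 407.2. Des read 57.20, 182.7 and 44.48 on neocortical and 475.4, 531.8 and 180.1 on cerebellar arrays. Its groups overlapped, and its log2 difference of 2.00 did not pass (limma adjusted p = 0.0600). Of the 6 mural markers tested, 2 had positive and 4 had negative differences. Acta2 alone passed, and it was lower in cerebellar samples (log2 difference -0.38, limma adjusted p = 0.0354). Acta2 and Tagln, which are expressed beyond mural cells, carried most of that list's summed signal, 120798 to 149306 on cerebellar and 162883 to 187394 on neocortical arrays. Col1a1 and Dcn of the fibroblast list, cells that also carry Pdgfrb, were bright, and their part in the Pdgfrb signal was not tested.

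Pdgfra, the receptor gene for PDGF-A and no member of the set above, read 1621, 2461 and 1817 on neocortical and 511.4, 2026 and 2219 on cerebellar arrays. For this brightest probe set, cerebellar array 1 alone was low. The groups otherwise overlapped, and the log2 difference of -0.55 ± 0.49 (SE) did not pass (limma adjusted p = 0.520). The other tested Pdgfra probe sets had means in the dim range, with log2 differences of 0.01 and 0.31. On them cerebellar array 1 was not the lowest. Pdgfa was at its highest on cerebellar array 1.

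Among other genes of the pathways, those that passed were regulators and effectors. Errfi1, which encodes MIG6, an inhibitor that binds the kinase domain of EGF receptor family members, was 2.87-fold higher in cerebellar astrocytes. The receptor regulator genes Lrig3 and Lrig1 were 1.80-fold and 1.47-fold higher. So were Plat, tissue plasminogen activator, known to cleave latent PDGF-C (1.79-fold), Rhbdf1, an inactive rhomboid that serves the ligand-shedding protease ADAM17 (1.49-fold), the EGF receptor substrate gene Eps8 (1.91-fold) and Map2k1, the MAP kinase kinase MEK1 (1.33-fold). Of 58 such genes listed, 52 had a named probe set and 47 were tested. A total of 7 were higher (14.9%, against 5.30% of all genes tested) and 0 were lower. At an unadjusted p under 0.05, 13 were higher and 2 were lower, against 12.6% and 15.3% of all genes tested, and the median log2 difference was 0.19 against -0.01. The lists were chosen with earlier results of these data known. Their shares, here and by list below, are therefore given as a description with no test. The counts depend on the scaling and on single arrays. With arrays scaled to a common median 4 were higher (Plat, Eps8, Errfi1 and Lrig3) and 2 were lower (the adapter gene Gab1 and the ubiquitin ligase gene Cbl), and the median was 0.04. Without neocortical replicate 1 or 3, 3 were higher in each case.

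**Figure D4:**
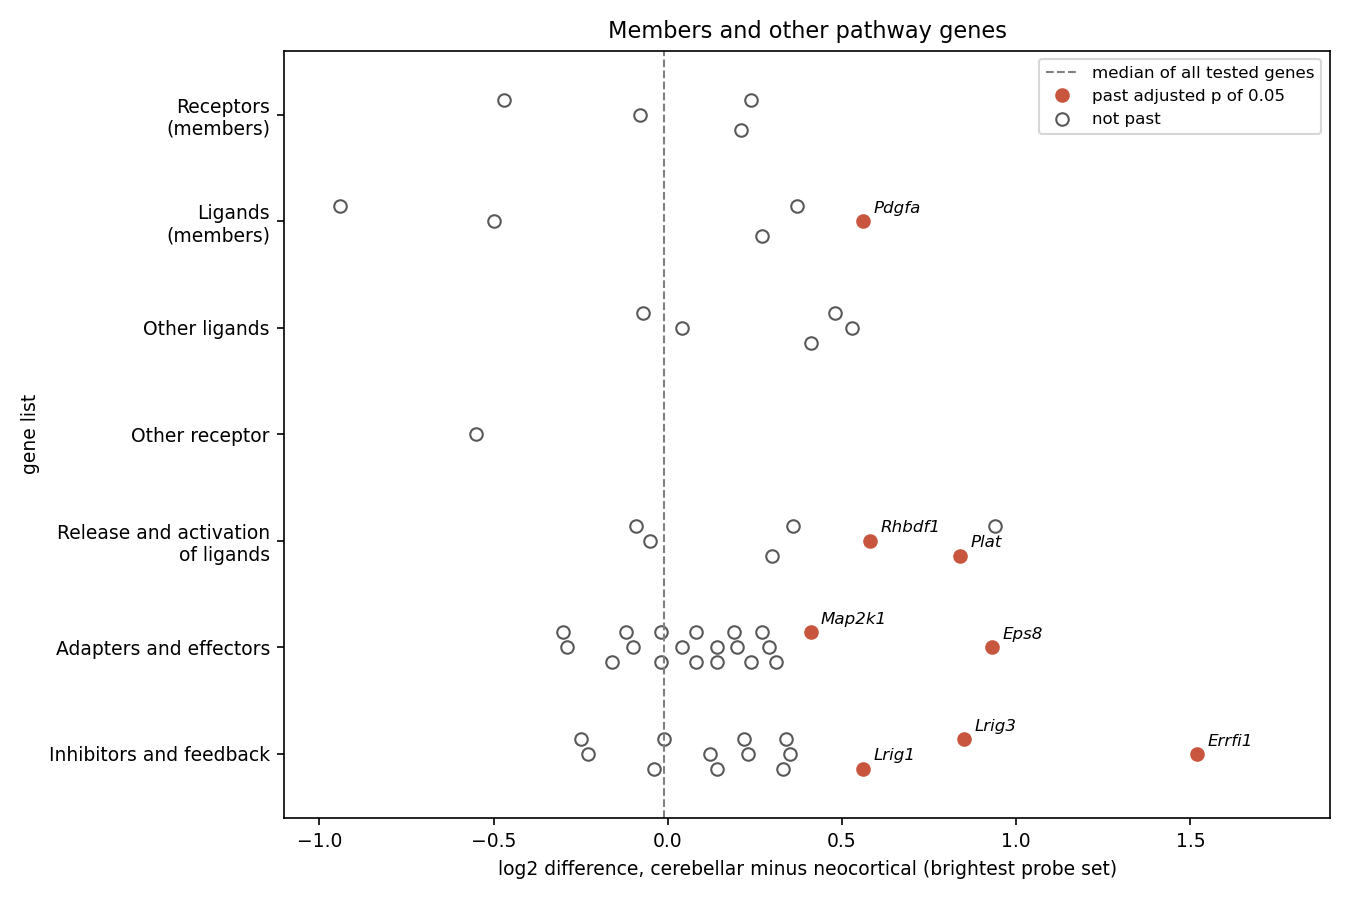
Fitted log2 difference (cerebellar minus neocortical, x axis) of every tested member and pathway gene by its brightest probe set, in rows by list; filled points passed an adjusted p of 0.05 and the dashed line is the median of all genes tested, -0.01. Pdgfa is the filled member, and Errfi1 lies farthest to the right at 1.52.

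Inhibitors and feedback genes had 3 of 14 higher and none lower, or 21.4% higher against 5.30% over the array. At an unadjusted p under 0.05 the counts were 4 and 1, beside 12.6% and 15.3% over the array. Errfi1 read 2417, 2508 and 2776 on neocortical and 7882, 6615 and 7629 on cerebellar arrays. The groups were far apart, with a log2 difference of 1.52 ± 0.11 (SE, limma adjusted p = 1.35e-04), and its second probe set passed too, at 1.17 ± 0.22. It passed under all 18 alternatives, with adjusted p from 5.31e-05 to 0.0108. Lrig3 read 1351, 1380 and 1550 against 2910, 2487 and 2320, with 2 of its 3 probe sets passing and the third too dim to be tested. Lrig3 lost its call (adjusted p = 0.0621) under 1 of 18 alternatives, with both arrays numbered 1 left out. Lrig1, at 3531, 3964 and 3672 against 5416, 5848 and 5198, passed with 1 of its 3 probe sets and under 12 of 18 alternatives. The MAP kinase feedback genes Dusp4, Dusp6, Spry1, Spry2, Spry4, Spred1 and Spred2 did not pass, with log2 differences of -0.01 to 0.35.

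Of 7 tested genes for the release and activation of ligands, 2 were higher (28.6%, against 5.30% over the array) and none was lower. Unadjusted, 4 were higher and 0 were lower at p under 0.05, beside 12.6% and 15.3%. Plat read 19892, 25451 and 20774 on neocortical and 37646, 43258 and 36978 on cerebellar arrays. The groups did not overlap, the log2 difference was 0.84 ± 0.11 (SE, limma adjusted p = 0.00197), and the call was kept under all 18 alternatives. Rhbdf1, at 5386, 4642 and 5318 against 8410, 6497 and 8126, passed under 10 of 18. The sheddase genes Adam10 and Adam17 had differences of 0.36 and 0.30 and did not pass.

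Of the tested adapters and effectors, 2 of 20 were higher, against 5.30% over the array, and none was lower. Those at an unadjusted p under 0.05 were 5 higher and 1 lower, beside 12.6% and 15.3%. Eps8 read 1478, 2243 and 1602 on neocortical and 2754, 4009 and 3352 on cerebellar arrays, and 2 of its 3 probe sets passed. It kept its call under 14 of 18 alternatives. Map2k1, at 10827, 10292 and 10237 against 12655, 16334 and 12957, was near the threshold (limma adjusted p = 0.0462) and passed under 7 of 18. None of the 5 other ligand genes tested passed, and none reached an unadjusted p under 0.05. Named by the rule for lists with fewer than 2 calls were Pdgfd, at 1352 ± 235 on neocortical and 1894 ± 880 on cerebellar arrays, and Ereg, at 421.2 ± 17.7 and 682.7 ± 424 (SD, n = 3 each). Both were high on cerebellar array 1 alone, at 2910 and 1172. Btc, Epgn, Nrg3 and Nrg4 were too dim to be tested.

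The genes whose signal followed that of Pdgfa most closely over the 6 arrays were Ifi202b (Pearson r = 0.995), Adsl and Map4k4 (0.992 each), and Sec63 and 1700051A21Rik (0.990 each). These are the largest of 12615 correlations and are given as a description. The points share the difference between groups and the high value on cerebellar array 1. Of these genes Ifi202b passed the test between regions, with a log2 difference of 1.10, and the others did not.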

How the data were processed

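The authors deposited 1 linear intensity per probe set and array, and all arrays had a mean of 1500 once the outer 2% on either side was removed, while medians ran from 284.7 to 361.2. How probes were summarised is not given in the sources used here, and there were no detection calls. Of 45101 probe sets, 64 controls were left out. The remaining 45037 were quantile normalized, floored at 62.2 (the 20th percentile of all values) and put on the log2 scale. The 27022 with a mean log2 value at or above the 40th percentile entered 1 linear model without a block, using lmFit and trended eBayes of limma 3.58.1 (R 4.3.3), with two-sided tests. The fit was tested on simulated data. The array number, 3 per group, limits the precision. Folds are from fitted values.

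Symbols came from the platform annotation, updated by Entrez ID to GRCm38.p6 for 34741 of 34945 probe sets with 1 symbol; 932 had several and 9160 none. A gene's brightest probe set had the highest mean log2 value. No coordinates are given for probe sets, whose build is not stated. The members and lists were chosen with earlier results of these data known. Other pathway genes were named where they passed, up to 4 per list, or as the 2 brightest where fewer than 2 passed; Adam10, Adam17, Gab1, Cbl and the MAP kinase feedback genes were named after their values were seen. Markers were used only to describe the arrays.

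After group means were removed, arrays with the same number had correlations of 0.18, 0.188 and 0.101, and other pairs had -0.182 to 0.0225. These correlations are weak and do not settle whether the numbers pair the arrays. The main fit had no block, and a fit with the replicate block was an alternative.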

Additional observations from a re-analysis of the deposited data

How the results depend on the processing

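With the replicate block 1 member (Pdgfa) and 7 other pathway genes were higher and 0 were lower, and no call among them changed. The same held with the floor at the 10th or 40th percentile, the filter at the 60th percentile and a robust variance; values as deposited lost Map2k1. Scaling to a common median moved the median log2 difference over tested probe sets to -0.096, from 0.009. It gave 0 members higher, 4 other pathway genes higher and 2 lower, and 819 probe sets higher and 2105 lower over the array, against 1319 and 1545. Without a filter 0 members were higher, with 577 and 704 probe sets, and without a variance trend 0 members and 4 pathway genes were higher, with 676 and 914 probe sets. When a gene's probe sets were averaged 0 members were higher, and 1 pathway gene (Gab1) was lower. Leaving out 1 array, or both arrays numbered 1, gave 0 to 1 member higher and 0 to 2 lower, 3 to 8 pathway genes higher and 0 to 1 lower, and 547 to 1230 probe sets higher and 654 to 1554 lower. Where 1 array of a group is left out, the spread comes from the remaining arrays of both groups. Lrig1 reversed, to a log2 difference of -0.02, when suffixed probe sets were not used, which leaves its dimmest probe set. The causes of the other changes were not tested. Erbb4, and in part Erbb3, are limited by signal in the range of the bacterial controls.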
